A study of Mus musculus with 12 samples.

Results

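The AP-1 and BATF transcription factors are described here by the 10 gene symbols Fos, Fosb, Fosl1, Fosl2, Jun, Junb, Jund, Batf, Batf3 and Atf3, which were found as rows of a count table of 54232 mouse genes. All 10 passed the filter on low counts that left 15679 genes for testing. RNA had been sequenced from naive CD4+ T cells whose source is labelled as spleen with pLN. Ddx55-KO and WT cells were compared at 0, 8 and 24 h on plates that carried antibodies to CD3 at 5 ug/ml and to CD28 at 2.5 ug/ml, which trigger T cell activation through the antigen receptor and its costimulator. The 6 groups were KO 0 h, WT 0 h, KO 8 h, WT 8 h, KO 24 h and WT 24 h, with 2 libraries each, 12 in all. The sources used here do not give the KO allele, any Cre driver or the age of the mice. Nothing says that a group's libraries were made from separate mice, so p-values measure only the spread between these libraries, which may be technical.

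AP-1 is a family of paired leucine zipper proteins that bind DNA as dimers. FOS proteins pair with JUN proteins, JUN proteins also pair with each other, and BATF proteins pair with JUN proteins and, in lymphocytes, join IRF4 or IRF8 on composite sites. In T cells AP-1 works with NFAT downstream of the T cell receptor and CD28, and many of its genes are immediate early genes, whose RNA is made within minutes of a signal and decays quickly.

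Ddx55, which encodes a DEAD-box RNA helicase, was lower in the KO libraries at each time, and part of its RNA remained. It stood at 19.5 and 19.0 CPM in KO cells, against 45.3 and 51.2 CPM in WT cells at 0 h, where CPM is the gene count scaled to the library's total of gene counts with TMM factors. At 8 h the values were 18.0 and 17.1 CPM in KO cells, against 68.7 and 64.1 CPM in WT cells, and at 24 h 14.7 and 14.4 CPM in KO cells, against 52.9 and 55.2 CPM in WT cells. The KO mean was 39.9% of the WT mean at 0 h, 26.4% at 8 h and 27.0% at 24 h, so the labels and the targeted gene match. Gene counts per library ran between 16810375 and 19126498. The T cell genes Cd3d and Cd3e were high in every library, with Cd3e between 138 and 327 CPM. The KO libraries also held more RNA of basophil, mast cell and neutrophil genes than WT libraries, with values given beside the results below. In such bulk RNA, fewer cells of a type and less RNA per cell cannot be told apart.

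Promoter sequence is shown for 5 members whose RNA moved far with time or differed between libraries at 0 h. They were picked because their windows hold TGACG or, in Jun, TGACATCA, so they do not show how common these letters are among members. The windows run from 250 bases before to 50 after the RefSeq start in GRCm38.p6, on the gene's strand. Capitals mark TGACG, part of the cyclic AMP response element (CRE), searched on both strands (CGTCA is its other strand), or in Jun the site TGACATCA.
Fos: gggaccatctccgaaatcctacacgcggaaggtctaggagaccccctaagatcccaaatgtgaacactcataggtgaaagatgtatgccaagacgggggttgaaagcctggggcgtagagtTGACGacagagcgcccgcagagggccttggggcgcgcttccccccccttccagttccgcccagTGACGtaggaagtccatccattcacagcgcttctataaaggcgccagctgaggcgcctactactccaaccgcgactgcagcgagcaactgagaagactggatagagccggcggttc
Fosb: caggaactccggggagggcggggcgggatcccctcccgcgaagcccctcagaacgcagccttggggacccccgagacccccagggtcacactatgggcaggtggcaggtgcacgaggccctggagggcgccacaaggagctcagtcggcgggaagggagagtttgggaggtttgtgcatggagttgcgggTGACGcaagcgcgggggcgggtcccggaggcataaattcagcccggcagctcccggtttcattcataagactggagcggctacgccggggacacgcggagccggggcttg
Jun: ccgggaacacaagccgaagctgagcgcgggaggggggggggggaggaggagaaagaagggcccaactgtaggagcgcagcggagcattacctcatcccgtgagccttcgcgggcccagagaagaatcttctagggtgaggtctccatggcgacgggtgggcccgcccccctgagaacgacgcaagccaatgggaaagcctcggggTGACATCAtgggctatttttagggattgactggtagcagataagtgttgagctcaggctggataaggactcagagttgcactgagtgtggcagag
Junb: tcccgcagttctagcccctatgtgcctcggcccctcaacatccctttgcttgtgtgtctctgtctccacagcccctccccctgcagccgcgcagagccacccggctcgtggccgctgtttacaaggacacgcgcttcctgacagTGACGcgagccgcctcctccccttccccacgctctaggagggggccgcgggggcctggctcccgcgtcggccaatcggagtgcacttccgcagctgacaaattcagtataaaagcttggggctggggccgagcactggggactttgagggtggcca
Atf3: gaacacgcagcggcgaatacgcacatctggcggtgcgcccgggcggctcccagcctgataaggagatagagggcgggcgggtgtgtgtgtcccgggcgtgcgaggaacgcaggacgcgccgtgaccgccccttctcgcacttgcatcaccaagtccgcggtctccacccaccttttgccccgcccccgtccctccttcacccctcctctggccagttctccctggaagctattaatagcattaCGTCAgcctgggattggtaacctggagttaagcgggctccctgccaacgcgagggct
The windows are chr12:85473640-85473939 on the plus strand for Fos, chr7:19309996-19310295 on the minus strand for Fosb, chr4:95052173-95052472 on the minus strand for Jun, chr8:84978699-84978998 on the minus strand for Junb and chr1:191183284-191183583 on the minus strand for Atf3. Counted from the start, with no base 0, TGACG began at -129 and -66 in Fos, at -60 in Fosb and at -106 in Junb, and its other strand began at -7 in Atf3. The Batf window, not printed, held it at -98. Of 32851 promoter windows of the same length, 20.8% held TGACG on either strand. In Jun the run TGACATCA lay at -45 to -38, a sequence held by 3.62% of windows and known from the human gene as a site of JUN and ATF2 dimers. TATAAA on the gene strand lay at -33 in Fos and at 1 in Junb, against 8.32% of all windows. Of the 9 members with a window (Fosl1 had none), 0 held the full element TGACGTCA (1.79% of windows), TGANTCA (7.81%) or a CArG box (1.63%). The Jund window (chr8:70697489-70697788) ends before the Jund gene interval (chr8:70698949-70700616), so it may miss the Jund promoter. Sites outside these windows were not searched. A letter match is a description of the sequence and no evidence of binding.

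At 24 h KO cells held more RNA of 5 members and less of 1 than WT cells, while at 0 h and 8 h no member passed the test. The test was edgeR's quasi-likelihood test in 1 fit over 12 libraries, with Benjamini-Hochberg adjustment over 15679 genes and a threshold of 0.05. Fosl1, Fosl2, Jun, Batf3 and Atf3 were higher and Batf was lower in KO cells at 24 h. That comparison called 38.5% of all genes tested (17.9% higher and 20.7% lower), so 6 of 10 members stand beside a large background. The median log2 fold change of the members was 0.71 at 24 h, against 0.02 over all genes tested. At 8 h the members' median was 0.38, against -0.00138 over all genes, with 0 members called beside a background of 2.65% (1.9% higher and 0.746% lower). At 0 h it was 0.06, against -0.03 over all genes, with 0 members called beside 5.7% (4.63% higher and 1.07% lower). Batf3 at 0 h and Fosl2 at 8 h, 1 member at each time, had an unadjusted p under 0.05, and DESeq2 called 0 at both times.

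KO and WT libraries did not overlap for 2 members at 0 h (Batf and Batf3), with KO higher for both, against 19.7% of genes with KO higher and 23.4% with KO lower. At 8 h 7 members did not overlap, all with KO higher, against 22.1% of genes with KO higher and 21.4% with KO lower. At 24 h 7 members lay higher in both KO libraries (37.5% of genes) and 1 lay lower in both (35.5% of genes).

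**Figure D1:**
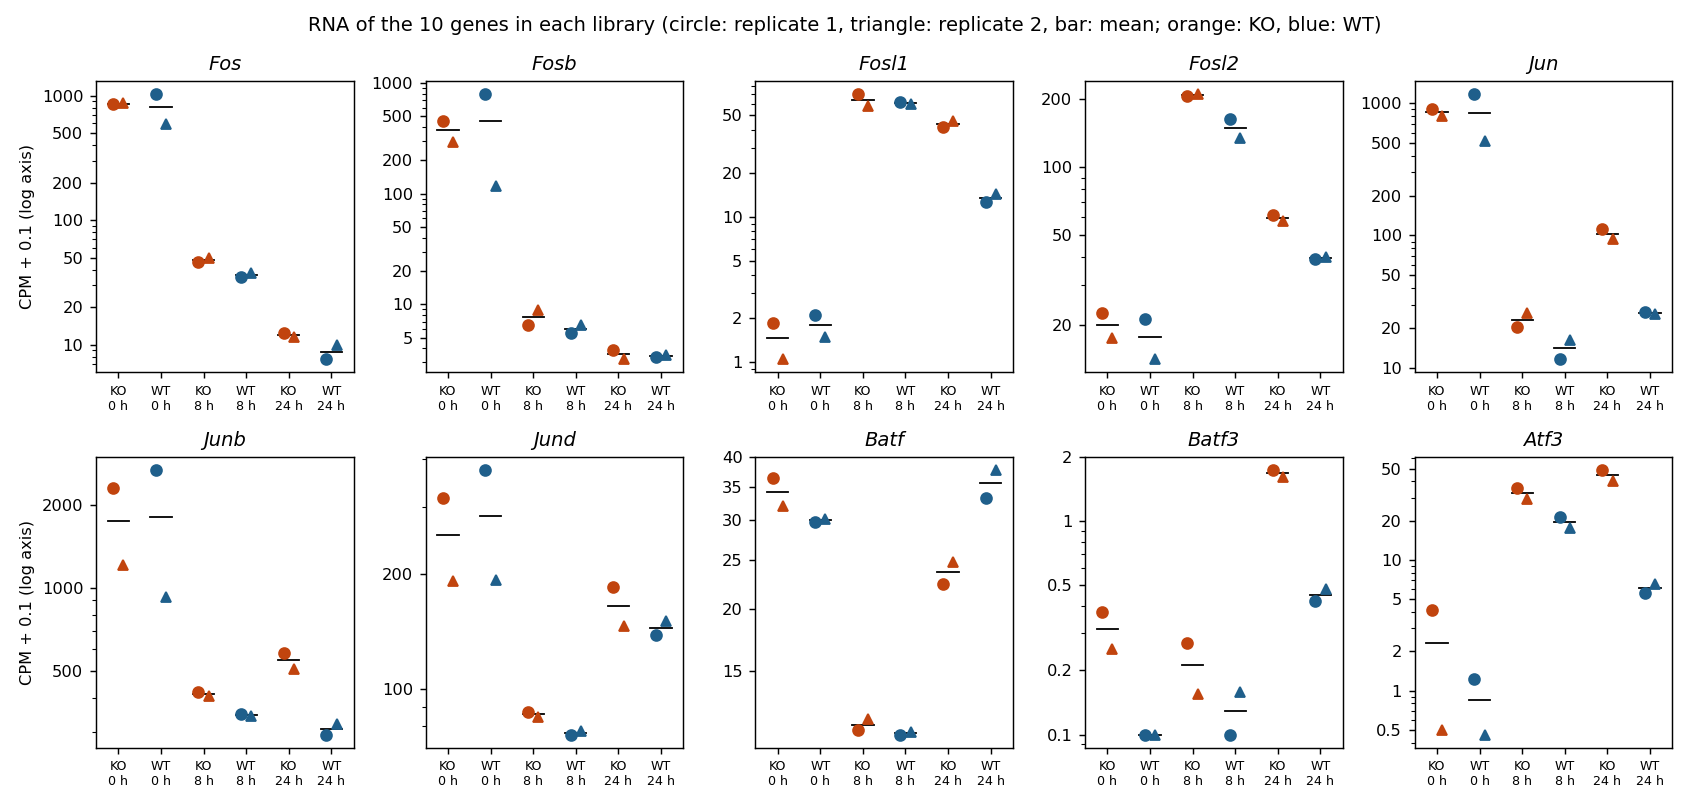
Each panel plots 1 gene in all 12 libraries, as CPM plus 0.1 on a log axis, with KO (orange) left of WT (blue) at each time; circles are replicate 1, triangles replicate 2 and bars the group mean. Fosb in WT cells at 0 h spans 118 to 792 CPM, and Jun at 24 h lies at 112 and 93.9 CPM in KO libraries, against 26.1 and 25.3 CPM in WT libraries.

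The FOS proteins cannot pair with themselves and act with a JUN partner. Fos (ENSMUSG00000021250, GRCm38 chr12:85473890-85477273), the founding FOS gene, was high before stimulation and fell at each later time in both genotypes. It stood at 849 and 874 CPM in KO cells, against 1025 and 591 CPM in WT cells at 0 h. At 8 h it stood at 46.0 and 49.5 CPM in KO cells, against 34.5 and 37.3 CPM in WT cells. By 24 h the KO libraries held 12.3 and 11.4 CPM, against 7.60 and 9.80 CPM in the WT libraries. The KO values lay inside the WT range at 0 h and above both WT values at 8 h and 24 h. Fos fell by 4.17 ± 0.236 on the log2 scale between 0 h and 8 h in KO cells (adjusted p = 1.08e-07) and by 4.49 ± 0.240 in WT cells (adjusted p = 6.02e-08), by edgeR's test with SE. Its log2 fold change, KO over WT, was 0.09 ± 0.204 at 0 h (adjusted p = 0.884). It was 0.41 ± 0.2199 at 8 h, with an adjusted p of 0.457, and 0.44 ± 0.261 at 24 h, with an adjusted p of 0.217, so no difference between genotypes passed the test. At 0 h it was 0.57 without WT replicate 1 (adjusted p = 0.0269) and -0.22 without WT replicate 2 (adjusted p = 0.515). A change of 0.03 ± 0.339 in the KO effect between 8 h and 24 h did not pass either (adjusted p = 0.976).

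Fosb (ENSMUSG00000003545, chr7:19302696-19310051, minus strand), the closest relative of Fos, showed the widest spread between WT libraries of all members. At 0 h it stood at 458 and 292 CPM in KO cells, against 792 and 118 CPM in WT cells. The 8 h values were 6.44 and 8.78 CPM in KO cells, against 5.46 and 6.45 CPM in WT cells, and the 24 h values were 3.76 and 3.13 CPM in KO cells, against 3.23 and 3.41 CPM in WT cells. KO and WT libraries overlapped at each time. Fosb fell by 5.62 ± 0.985 (log2) at 8 h against 0 h in KO cells (adjusted p = 0.00262) and by 6.26 ± 1.021 in WT cells (adjusted p = 0.0018). The direction of KO against WT at 0 h was set by single libraries. The log2 fold change was -0.28 ± 0.760 with all libraries, 1.70 without WT replicate 1 (adjusted p = 0.00484) and -1.05 without WT replicate 2 (adjusted p = 0.0398).

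Fosl1 (ENSMUSG00000024912, chr19:5447547-5455946), which encodes FRA-1, a FOS protein without the transactivation domain of FOS, had the firmest difference between genotypes. It stood near zero at 0 h, with 1.76 and 0.953 CPM in KO cells, against 2.01 and 1.38 CPM in WT cells. At 8 h it had risen in both genotypes, with 69.9 and 58.0 CPM in KO cells, against 61.6 and 60.2 CPM in WT cells. At 24 h the KO libraries still held 41.2 and 45.5 CPM, against 12.7 and 14.3 CPM in the WT libraries. The groups overlapped at 0 h and 8 h and were far apart at 24 h. Fosl1 was higher in KO cells at 24 h by 1.68 ± 0.159 (log2, adjusted p = 1.19e-06), a fold of 3.21. Its log2 fold change of KO against WT was 0.07 ± 0.148 at 8 h (adjusted p = 0.909). The KO effect grew by 1.61 ± 0.217 between 8 h and 24 h, which passed the test of the difference itself (adjusted p = 0.000142). Between 0 h and 8 h Fosl1 rose by 5.57 ± 0.211 in KO cells (adjusted p = 2.42e-11) and by 5.16 ± 0.207 in WT cells (adjusted p = 4.14e-11). From 8 h on, Fosl1 fell by 0.56 ± 0.149 in KO cells (adjusted p = 0.00906) and by 2.17 ± 0.160 in WT cells (adjusted p = 6.34e-08). The smaller fall in KO cells lost its call without KO 8 h replicate 1 (adjusted p = 0.0953) or KO 24 h replicate 1 (adjusted p = 0.0794). Ccdc85b overlaps the end of Fosl1 on the opposite strand, and the sources used here do not say whether counting used the strand. Ccdc85b had 19.7 and 17.0 CPM in KO cells, against 24.0 and 24.4 CPM in WT cells at 24 h, lower in KO where Fosl1 was higher.

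Fosl2 (ENSMUSG00000029135, chr5:32135801-32157842), which encodes FRA-2, peaked at 8 h and was the member nearest the threshold there. At 0 h it stood at 22.5 and 17.3 CPM in KO cells, against 21.0 and 14.0 CPM in WT cells. It stood at 206 and 211 CPM in KO cells, against 163 and 134 CPM in WT cells at 8 h. At 24 h the values were 61.6 and 57.6 CPM in KO cells, against 39.2 and 40.1 CPM in WT cells. KO libraries lay above both WT libraries at 8 h and 24 h and overlapped with them at 0 h. The KO against WT log2 fold change was 0.18 ± 0.176 in the 0 h cells (adjusted p = 0.674). It reached 0.49 ± 0.155 by 8 h, with an adjusted p of 0.137, and 0.59 ± 0.162 by 24 h, with an adjusted p of 0.0118. The call at 24 h was lost without KO 24 h replicate 1 (adjusted p = 0.0633), WT 24 h replicate 1 (adjusted p = 0.0726) or WT 24 h replicate 2 (adjusted p = 0.0588). With time, Fosl2 rose by 3.39 ± 0.174 in KO cells and by 3.09 ± 0.175 in WT cells to 8 h, and then fell by 1.81 ± 0.161 in KO cells and by 1.91 ± 0.163 in WT cells to 24 h (highest adjusted p = 4.15e-06).

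The JUN proteins can pair among themselves and supply the partner of FOS, BATF and ATF proteins. Jun (ENSMUSG00000052684, chr4:95049034-95052222, minus strand), the target of the JNK kinases, was as high as Fos in counts at 0 h, was low at 8 h and rose in part by 24 h in KO cells. At 0 h it stood at 907 and 803 CPM in KO cells, against 1169 and 519.7 CPM in WT cells. The 8 h libraries held 20.2 and 25.8 CPM in KO cells, against 11.6 and 16.2 CPM in WT cells. Those of 24 h held 112 and 93.9 CPM in KO cells, against 26.1 and 25.3 CPM in WT cells. The KO libraries lay within the WT range at 0 h and above it at 8 h and 24 h. Jun fell by 5.22 ± 0.428 (log2) to 8 h in KO cells and fell by 5.93 ± 0.447 in WT cells. It then rose by 2.17 ± 0.387 in KO cells (adjusted p = 0.0045), against 0.89 ± 0.408 in WT cells (adjusted p = 0.125). At 24 h Jun was higher in KO cells by 2.004 ± 0.383 (adjusted p = 0.0053), a fold of 4.01. At 8 h the log2 fold change was 0.73 ± 0.410 (adjusted p = 0.512). The call at 24 h was lost without the 3 KO libraries numbered 1 (adjusted p = 0.116) or those numbered 2 (adjusted p = 0.09), fits that leave 1 KO library at each time. At 0 h the log2 fold change was 0.02 ± 0.349 with all libraries, 0.75 without WT replicate 1 (adjusted p = 0.0438) and -0.42 without WT replicate 2 (adjusted p = 0.309). The KO effect differed between 24 h and 8 h by 1.28 ± 0.557, which did not pass (adjusted p = 0.191). Junos, antisense to Jun, held 98 counts over all 12 libraries.

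Junb (ENSMUSG00000052837, chr8:84974484-84978718, minus strand), which encodes a JUN protein with weaker transactivation than JUN and a known role in T helper cells, was the most abundant member per length in each group. It stood at 2290.4 and 1212.5 CPM in KO cells, against 2672 and 928 CPM in WT cells at 0 h. At 8 h the values were 420.1 and 404 CPM in KO cells, against 347 and 342 CPM in WT cells. At 24 h they were 583 and 509 CPM in KO cells, against 294 and 321 CPM in WT cells. Libraries overlapped at 0 h, and both KO values exceeded both WT values at 8 h and 24 h. Junb fell by 2.09 ± 0.512 (log2) to 8 h in KO cells (adjusted p = 0.0109) and by 2.39 ± 0.518 in WT cells (adjusted p = 0.00622). Its KO against WT log2 fold change at 24 h was 0.83 ± 0.497 (adjusted p = 0.246) in the fit over 12 libraries. The spread between replicates in that fit, as a biological coefficient of variation, was 33.5% for Junb, against 8.96% for Batf. Prdx2 overlaps the end of Junb on the opposite strand and was lower in KO cells at 24 h, with 74.7 and 76.2 CPM, against 128 and 129 CPM in WT cells.

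Jund (ENSMUSG00000071076, chr8:70698949-70700616), the JUN gene that most tissues express steadily, had the smallest genotype difference among the JUN genes at 24 h. It stood at 316 and 191 CPM in KO cells, against 374 and 192 CPM in WT cells at 0 h. At 8 h it stood at 87.1 and 84.6 CPM in KO cells, against 76.0 and 77.7 CPM in WT cells. At 24 h it stood at 184 and 146 CPM in KO cells, against 138 and 151 CPM in WT cells, which overlap. Jund fell by 1.56 ± 0.346 (log2) to 8 h in KO cells (adjusted p = 0.00581) and by 1.88 ± 0.350 in WT cells (adjusted p = 0.00235). The log2 fold change of KO against WT at 24 h was 0.19 ± 0.338 (adjusted p = 0.704). A normal approximation put its 95% interval between -0.47 and 0.85, which is too narrow for the few libraries of this fit.

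BATF proteins lack a transactivation domain, and with a JUN partner and an IRF they set gene programmes of T helper and other effector T cells. Batf (ENSMUSG00000034266, chr12:85686669-85709087) was the 1 member that was lower in KO cells. It stood at 36.2 and 31.9 CPM in KO cells, against 29.7 and 30.1 CPM in WT cells at 0 h. Values at 8 h were close, 11.3 and 11.98 CPM in KO cells, against 11.1 and 11.3 CPM in WT cells. At 24 h they were 22.3 and 24.7 CPM in KO cells, against 33.2 and 37.7 CPM in WT cells. KO libraries were slightly above WT libraries at 0 h and 8 h and below them at 24 h. Batf was lower in KO cells at 24 h by a log2 fold change of -0.59 ± 0.116 (adjusted p = 0.000968), a fold of 0.664. At 8 h against 0 h Batf fell by 1.55 ± 0.122 in KO cells (adjusted p = 3.91e-08) and by 1.42 ± 0.123 in WT cells (adjusted p = 9.51e-08). Between 8 h and 24 h Batf rose by 1.01 ± 0.123 in KO cells (adjusted p = 2.06e-05) and by 1.66 ± 0.123 in WT cells (adjusted p = 6.38e-08). The KO effect changed by -0.65 ± 0.172 between these times (adjusted p = 0.0197). Without 1 of 5 libraries at 8 h or 24 h this change missed the threshold, with adjusted p between 0.0536 (without KO 8 h replicate 2) and 0.096 (without KO 24 h replicate 1). The other 3 were WT 8 h replicate 1 (0.0742), WT 8 h replicate 2 (0.0665) and WT 24 h replicate 2 (0.0888).

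Batf3 (ENSMUSG00000026630, chr1:191097847-191108945), best known for its role in cross-presenting dendritic cells, was counted in few reads. KO cells held 5 and 3 counts at 0 h, against 0 and 0 counts in WT cells. At 8 h there were 3 and 1 counts in KO cells, against 0 and 1 counts in WT cells. At 24 h there were 30 and 28 counts in KO cells, against 6 and 7 counts in WT cells. Both KO libraries at 24 h exceeded both WT libraries by a wide margin in counts. Summed over the group, 58 counts in KO cells stood against 13 in WT cells at 24 h, a depth-scaled ratio of 4.48 with an exact 95% interval between 2.43 and 8.91, which covers counting error only. The edgeR log2 fold change was 2.14 ± 0.624 (adjusted p = 0.0148). The call was lost in DESeq2 (adjusted p = 0.0986) and without any 1 of the 4 libraries at 24 h, with adjusted p of 0.0675 and 0.0538 without KO replicate 1 and 2 and of 0.0908 and 0.0686 without WT replicate 1 and 2. At 0 h the 8 counts in KO cells were at least 2.35-fold higher than a floor of 3 counts per group in WT cells, where 0 were counted. The exact 95% interval of the ratio began at 1.503, and the adjusted p was 0.0976. Batf3 rose between 8 h and 24 h by 3.73 ± 0.742 in KO cells (adjusted p = 0.00152) and by 3.34 ± 1.08 in WT cells (adjusted p = 0.0231), where 13 counts stood against 1, a ratio of 12.4 with an interval between 1.86 and 525.

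Atf3 (ENSMUSG00000026628, chr1:191170296-191218039, minus strand), a stress-induced factor that represses transcription as a homodimer and also pairs with JUN, had the largest fitted genotype difference among the members at 24 h. It stood at 4.02 and 0.401 CPM in KO cells, against 1.12 and 0.361 CPM in WT cells at 0 h. At 8 h it stood at 35.2 and 29.1 CPM in KO cells, against 21.2 and 17.4 CPM in WT cells. At 24 h it stood at 48.6 and 40.4 CPM in KO cells, against 5.50 and 6.39 CPM in WT cells. KO libraries were above WT libraries at 8 h and 24 h, and at 0 h KO replicate 1 alone was high. Atf3 was higher in KO cells at 24 h by 2.90 ± 0.597 (log2, adjusted p = 0.00802), a fold of 7.49. At 0 h the log2 fold change was 1.53 ± 1.001 (adjusted p = 0.513), with 2.45 without KO replicate 2 (adjusted p = 0.00346) and -0.85 without KO replicate 1 (adjusted p = 0.592). The call at 24 h was lost without WT 24 h replicate 1 (adjusted p = 0.063) or WT 24 h replicate 2 (adjusted p = 0.0512), with log2 fold changes of 2.80 and 3.02. At 8 h the log2 fold change was 0.74 ± 0.543 (adjusted p = 0.642), and the change of the KO effect between 8 h and 24 h was 2.17 ± 0.798 (adjusted p = 0.131). Atf3 rose to 8 h by 3.89 ± 0.671 in KO cells (adjusted p = 0.00184) and by 4.68 ± 0.809 in WT cells (adjusted p = 0.00178). From 8 h to 24 h its log2 fold change was 0.47 ± 0.529 in KO cells (adjusted p = 0.552), against -1.70 ± 0.597 in WT cells (adjusted p = 0.0576).

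Members moved in both directions with time. There were no unstimulated cells at 8 h or 24 h, so stimulation and time in culture cannot be told apart. Between 0 h and 8 h Fosl1, Fosl2 and Atf3 rose and Fos, Fosb, Jun, Junb, Jund and Batf fell, in KO cells and in WT cells alike, and Batf3 did not pass. These 9 called members stand beside 61.5% of genes called in KO cells (28.6% higher and 32.9% lower) and 61.9% in WT cells (28.3% higher and 33.6% lower). Between 8 h and 24 h 6 members passed in KO cells, where 34.4% of genes were called (18.9% higher and 15.6% lower), and 5 in WT cells, where 43.3% were called (24% higher and 19.3% lower). Batf and Batf3 rose and Fos, Fosl1 and Fosl2 fell in both genotypes, and Jun rose in KO cells. Fitted on the libraries of the comparison alone, the falls of Fosb (adjusted p = 0.0869), Junb (adjusted p = 0.121) and Jund (adjusted p = 0.0832) in WT cells and the rise of Atf3 in KO cells (adjusted p = 0.0679) to 8 h missed the threshold. Junb's fall to 8 h in KO cells was also lost without KO 0 h replicate 1 (adjusted p = 0.0645), KO 8 h replicate 1 (adjusted p = 0.0657) or KO 8 h replicate 2 (adjusted p = 0.0619). The rise of Batf3 in WT cells to 24 h was lost in DESeq2 (adjusted p = 0.0928) and without WT 8 h replicate 1 (adjusted p = 0.147), WT 24 h replicate 1 (adjusted p = 0.0502) or WT 24 h replicate 2 (adjusted p = 0.0732). The change of the KO effect between 0 h and 8 h passed for 0 members, beside 0.995% of genes, with 0 members at an unadjusted p under 0.05 and 0 called by DESeq2. Between 8 h and 24 h it passed for Fosl1 and Batf, beside 14.4% of genes (5.49% with a positive and 8.96% with a negative change).

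**Figure D2:**
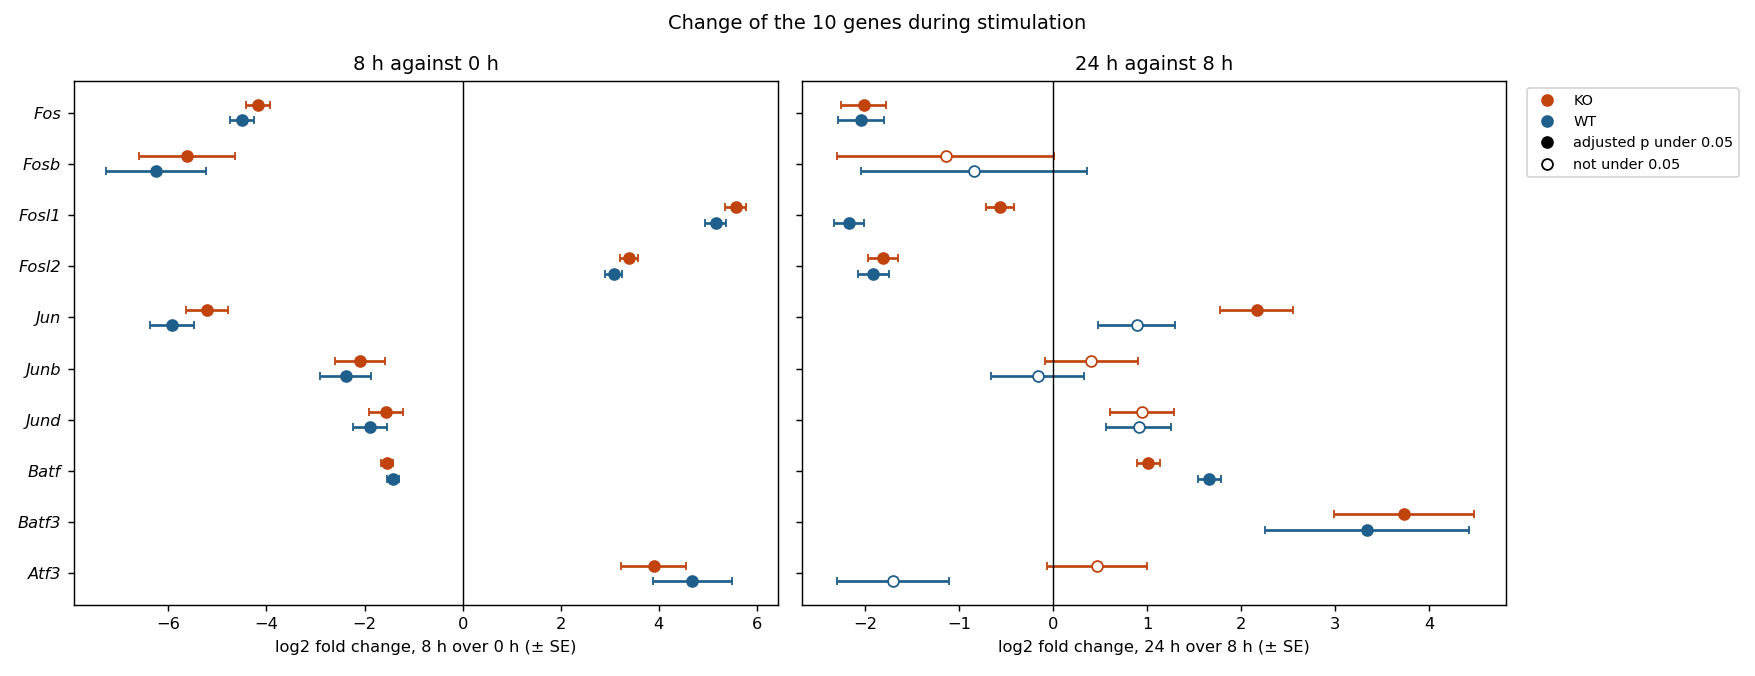
Log2 fold changes (± SE, edgeR) of the members are plotted for 8 h against 0 h (left) and 24 h against 8 h (right), with KO (orange) above WT (blue) and filled points for adjusted p under 0.05; Batf3 is left out on the left, where WT cells held 0 counts at 0 h. Fosl1 at 24 h against 8 h lies at -0.56 in KO cells and at -2.17 in WT cells.

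The members' median difference between the 2 libraries of a group was larger at 0 h than at 8 h or 24 h. Between the libraries of 1 group, replicate 1 exceeded replicate 2 for 9 of 10 members in KO cells and 8 of 10 in WT cells at 0 h, against 55.1% and 44.4% of all genes. The count was 5 in KO cells and 4 in WT cells at 8 h (49.9% and 51.1% of genes), and 8 in KO cells and 1 in WT cells at 24 h (50.2% and 47.7% of genes). In WT cells Fosb differed 6.70-fold, Junb 2.88-fold and Jun 2.25-fold between replicates, and in KO cells Atf3 differed 5.02-fold, on CPM plus 0.5. These are 1 member over 2-fold in KO cells, against 2.84% of genes, and 3 members in WT cells, against 2.56% of genes. At 8 h and 24 h no member passed 2-fold in any group, where 1.82% (KO 8 h), 1% (WT 8 h), 1.75% (KO 24 h) and 0.695% (WT 24 h) of genes did. The median absolute log2 ratio of replicates at 0 h was 0.503 over the members and 0.226 over all genes in KO cells, and 0.853 over the members and 0.152 over all genes in WT cells. At 24 h it was 0.169 and 0.121 in KO cells, and 0.125 and 0.136 in WT cells.

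Junb was higher in replicate 1 by a log2 ratio of at least 0.917 in both genotypes at 0 h, and 105 genes met that limit in both, 24 of them with a mean of at least 5 CPM. These were chosen after their values were seen. They include the signal-induced genes Tnfaip3, an inhibitor of NF-kappaB signalling, Sik1, Maff, Cebpb and Dusp4. Tnfaip3 stood at 885 and 362 CPM in KO cells, against 764 and 92.4 CPM in WT cells at 0 h. They also include genes of other blood cells, the antibody light chain Igkc, the globin Hbb-bs and the class II chaperone Cd74. Igkc stood at 238 and 97.0 CPM in KO cells, against 146 and 8.19 CPM in WT cells. Genes outside this selection did not all go this way. The B cell gene Cd79a stood at 1.54 and 2.36 CPM in KO replicate 1 and 2, against 2.19 and 2.41 CPM in WT replicate 1 and 2. The basophil gene Mcpt8 stood at 66.6 and 205 CPM in KO replicate 1 and 2, against 6.50 and 1.87 CPM in WT replicate 1 and 2. The summed B cell markers, 10 listed and 5 tested, ran to 775 CPM in replicate 1 and 467 CPM in replicate 2 of KO cells, against 639 CPM in replicate 1 and 465 CPM in replicate 2 of WT cells. This sum includes the selected gene Igkc, so it is not separate from the selection. The part of these cells in the members' spread was not tested.

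**Figure D3:**
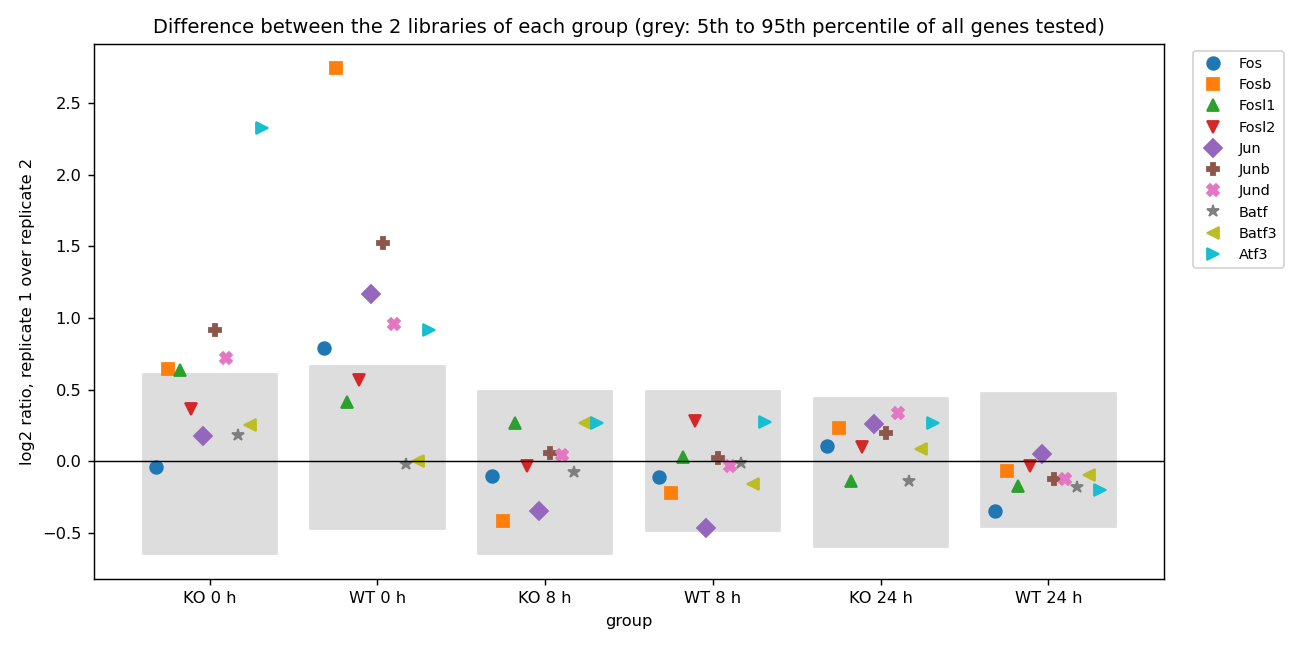
The log2 ratio of replicate 1 over replicate 2 (CPM plus 0.5) is plotted for each member in each group, with KO left of WT at each time, and the grey band spans the 5th to 95th percentile of all genes tested. At 0 h Fosb in WT cells (2.75) and Atf3 in KO cells (2.33) lie far above the band, and at 8 h and 24 h all members lie inside it.

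With the 4 libraries at 0 h left out of the fit, more members passed with nearly the same fold changes and smaller errors. This fit over 8 libraries was added after the values were seen. It leaves out the libraries in which the members spread most, so its smaller errors and added calls are no separate support. At 24 h it called 8 members, with Junb (0.84, adjusted p = 7.29e-06) and Fos (0.46, adjusted p = 0.0158) joining the 6. At 8 h it called 3 members higher in KO cells, Atf3 (0.74, adjusted p = 0.00907), Fosl2 (0.49, adjusted p = 0.00778) and Jun (0.73, adjusted p = 0.0355). The change of the KO effect between 8 h and 24 h then passed for 5 members, with Atf3 (2.17, adjusted p = 9.26e-06), Jun (1.29, adjusted p = 0.00244) and Junb (0.58, adjusted p = 0.00716) joining Fosl1 and Batf, beside 2922 of all genes, where the fit over 12 libraries called 2265. For KO against WT this fit called 653 of all genes at 8 h and 6577 at 24 h, where the fit over 12 libraries called 415 and 6041. Fosb and Jund were not called for KO against WT at 8 h or 24 h in either fit. For 24 h against 8 h, this fit called 10 members in KO cells, beside 5976 of all genes, and 9 in WT cells, beside 7324 of all genes. The fit over 12 libraries called 5397 genes in KO cells and 6783 in WT cells. Atf3 then differed in sign between the genotypes, at 0.47 in KO cells (adjusted p = 0.0145) and -1.71 in WT cells (adjusted p = 1.17e-06), and Jund rose in both, by 0.94 in KO cells (adjusted p = 1.01e-05) and 0.90 in WT cells (adjusted p = 8.44e-06).

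**Figure D4:**
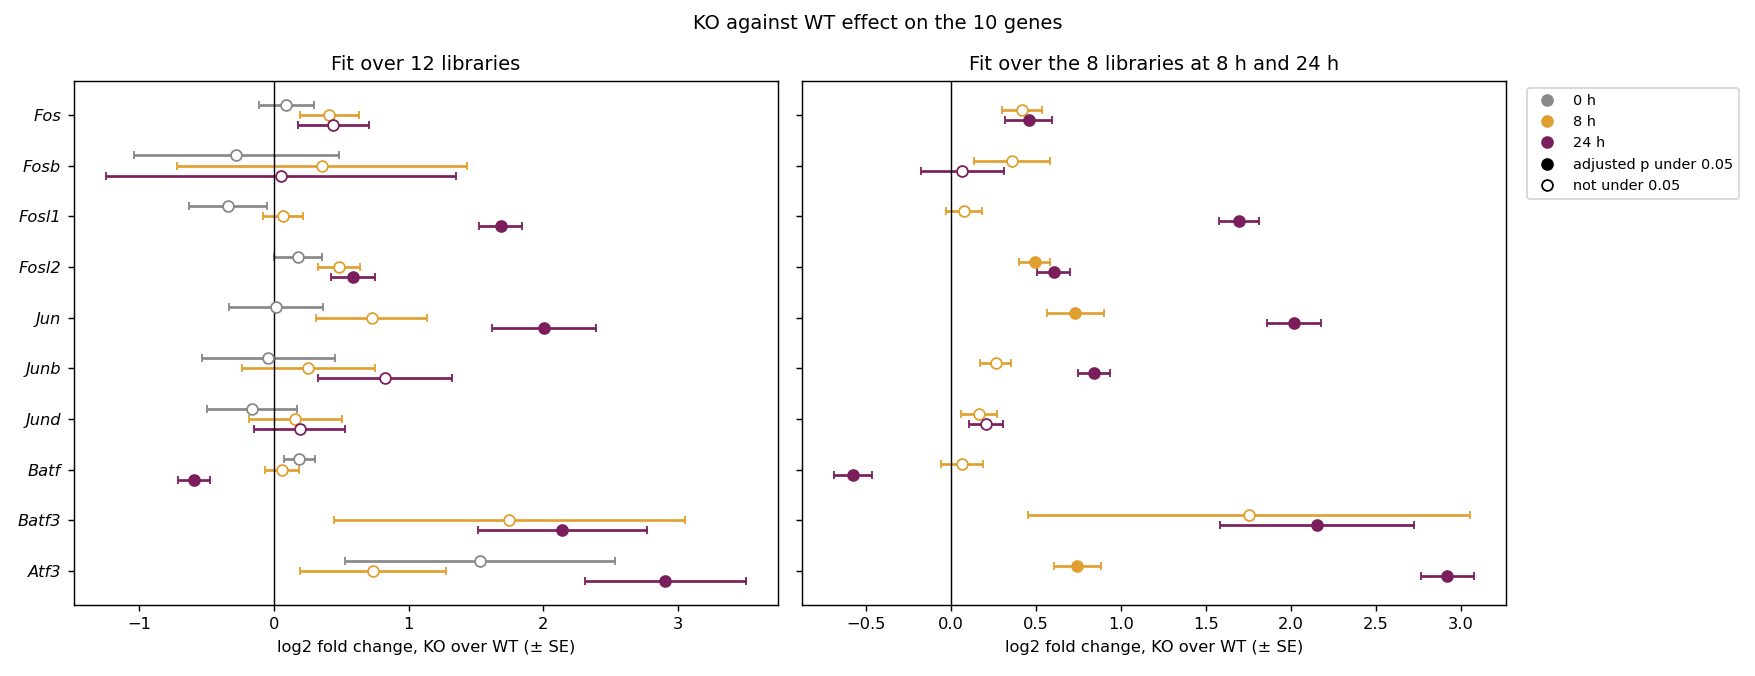
Log2 fold changes of KO over WT (± SE, edgeR) are plotted for the fit over 12 libraries (left) and over the 8 libraries at 8 h and 24 h (right), with filled points for adjusted p under 0.05; Batf3 at 0 h is left out because WT cells held 0 counts. Points at 24 h lie at nearly the same place in both panels while the error bars of Junb, Jun, Fosb and Atf3 are shorter on the right.

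Per length, the family's RNA was dominated by Junb. FPKM here is CPM per kilobase of the union of exons of each gene. The 10 members summed to 1636 FPKM in KO cells and 1658 FPKM in WT cells at 0 h, as group means. At 8 h they summed to 335.5 FPKM in KO cells and 279 FPKM in WT cells, and at 24 h to 439.8 FPKM in KO cells and 271 FPKM in WT cells. Both KO libraries lay above both WT libraries at 8 h and 24 h, and at 0 h the WT libraries lay outside the KO ones on either side, at 2339 and 976 FPKM. Junb made up 46.5% of this sum in KO cells and 47.2% in WT cells at 0 h, 53.4% and 53.7% at 8 h, and 53.9% and 49.2% at 24 h. At 0 h the order of levels after Junb was Fos, Jun, Jund, Fosb and Batf in both genotypes. Within each KO library this order held. It also held within each WT library, save that Batf (21.4 FPKM) lay above Fosb (18.9 FPKM) in WT replicate 2. Compared across the 2 libraries of a group, the values of each of these neighbours overlapped in WT cells and did not in KO cells. By 8 h Jund and then Fosl1 followed Junb in both genotypes, with no overlap between these neighbours. At 24 h Jun came next after Jund in KO cells, with 32.3 ± 4.08 FPKM (SD, n = 2), and Batf did in WT cells, with 25.2 ± 2.26 FPKM. The FOS genes held 6.89% and 8.23% of the sum in KO libraries, against 5.41% and 5.61% in WT libraries at 24 h. Fosl1 and Atf3 did not differ beyond their library spread in KO cells at 24 h, and neither did Fosl2 and Fos in WT cells.

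**Figure D5:**
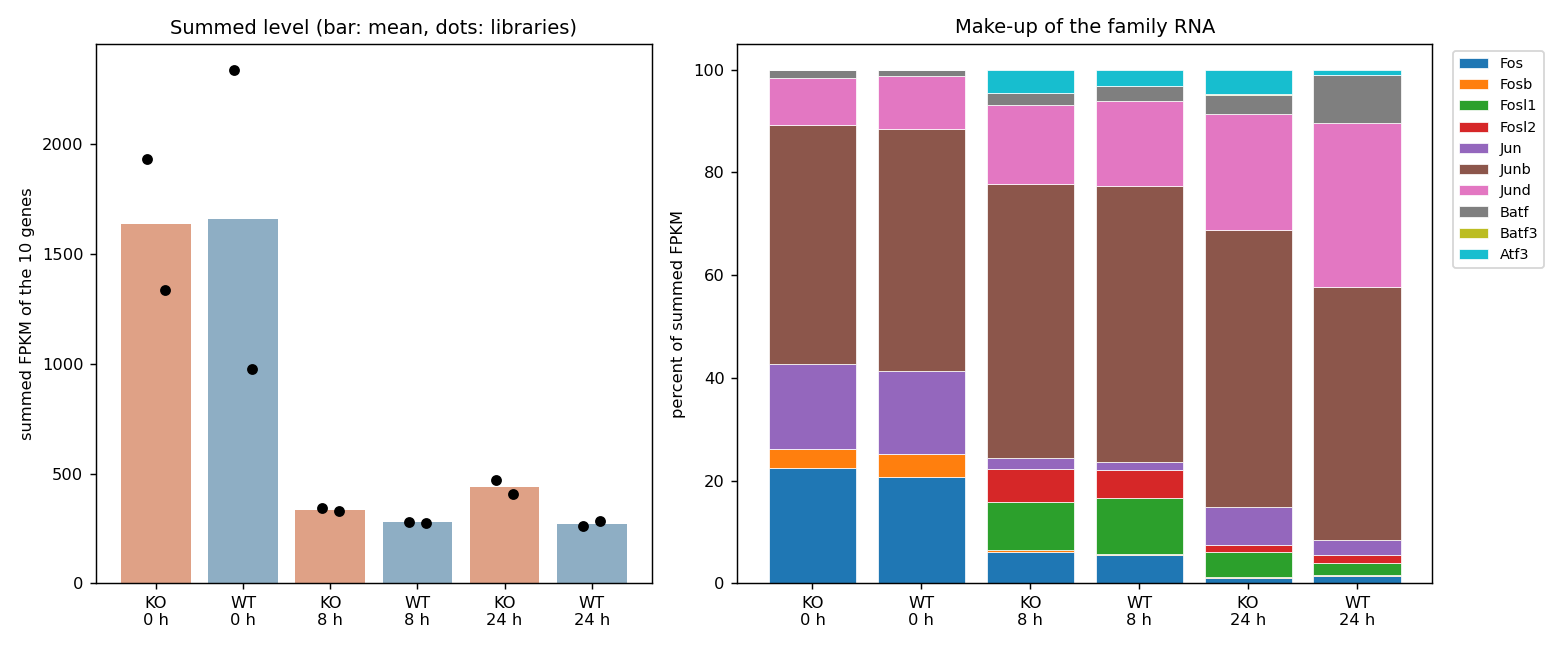
Summed FPKM of the 10 genes by group (left, bars are means and dots the 2 libraries) and each gene's percent of that sum (right) are plotted with KO left of WT at each time. The sum at 24 h is 439.8 FPKM in KO cells and 271 FPKM in WT cells, with Jun at 7.35% of it in KO cells and 2.97% in WT cells.

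Genes that pair with the members or act around them were taken from lists that were written with earlier results of these data known. Of 23 other dimer partners 22 were tested, and at 24 h 11 were higher and 0 lower in KO cells, with a median log2 fold change of 0.62, against 0.02 over all genes. Over all genes tested 17.9% were higher and 20.7% lower at 24 h, 1.9% and 0.746% at 8 h, and 4.63% and 1.07% at 0 h. Each list count below stands beside these shares. Ddit3, the stress factor CHOP, averaged 56.3 ± 0.0879 CPM in KO cells and 8.72 ± 0.372 CPM in WT cells (SD, n = 2 each) and was higher by 2.69 ± 0.124 (adjusted p = 7.24e-10). Atf5 (1.21 ± 0.139, adjusted p = 7.84e-06) and Nfe2l1, a factor of proteasome genes (0.70 ± 0.0840, adjusted p = 1.14e-05) were also higher. For Ddit3 the KO effect grew by 2.26 ± 0.169 between 8 h and 24 h (adjusted p = 5.43e-07). Bach1 was the 1 partner higher at 8 h (0.52 ± 0.129, adjusted p = 0.044), a call lost without either WT 8 h library. Crem was the 1 at 0 h (0.77 ± 0.182, adjusted p = 0.0209), a call lost without either WT 0 h library.

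Immediate early genes outside the family were called in 1 direction at 8 h and 24 h. Of 28, 10 were higher and 0 lower in KO cells at 24 h, with a median of 0.76, and 6 were higher and 0 lower at 8 h, with a median of 0.32. All genes tested gave 17.9% higher and 20.7% lower at 24 h, 1.9% and 0.746% at 8 h, and 4.63% and 1.07% at 0 h. Btg2, an antiproliferative gene, averaged 182 ± 4.05 CPM in KO cells and 71.8 ± 10.6 CPM in WT cells at 24 h, higher by 1.34 ± 0.101 (adjusted p = 1.1e-07). Ier5 (1.20 ± 0.119, adjusted p = 1.72e-06) and Egr2, a zinc finger factor that restrains T cell activation (0.97 ± 0.0986, adjusted p = 2.25e-06), were higher as well. Without the libraries at 0 h, 20 of 28 were higher at 24 h and 11 at 8 h. That fit was added after the values were seen and also called more of all genes at both times. The shares above belong to the fit over 12 libraries, so these larger counts are no separate support. At 0 h 3 were higher in KO cells, among them Ier3 (2.95 ± 0.479, adjusted p = 0.00252), and without WT 0 h replicate 1 the count was 11. The 8 h count was 3 without KO 8 h replicate 2 and 2 without either WT 8 h library, and the 24 h count was 17 without either WT 0 h library.

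The kinases that carry the T cell receptor signal to AP-1 were mixed. Of 27, 6 were higher and 5 lower in KO cells at 24 h, with a median of -0.05. Among all genes tested 17.9% were higher and 20.7% lower at 24 h, so the kinase counts lay near the background. Map3k7, which encodes the kinase TAK1, was higher (0.68 ± 0.0795, adjusted p = 8.84e-06), and Map3k4 (-0.86 ± 0.102, adjusted p = 1.07e-05) and Mapk3, which encodes ERK1 (-0.91 ± 0.147, adjusted p = 0.000197), were lower. Of SRF and its 5 partner factors, Elk3 was higher (0.70 ± 0.127, adjusted p = 0.000501) and Srf lower (-0.46 ± 0.0973, adjusted p = 0.00176). Heat shock genes are another group with rapid induction. In KO cells 6 of 13 tested were higher at 0 h, with a median of 0.59, and at 24 h 8 were lower and 1 higher with a median of -0.31. The background at 0 h was 4.63% of all genes higher and 1.07% lower. Hspa8, a constitutive HSP70 chaperone, was higher by 0.70 ± 0.101 at 0 h (adjusted p = 0.000817) and lower at 24 h, at -1.03 ± 0.101 (adjusted p = 1.76e-06). The 24 h count of 9 heat shock genes was 5 without KO replicate 2, WT replicate 1 or WT replicate 2 of that time.

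Of 11 factors that share composite sites or programmes with BATF and JUN, 6 were higher and 1 lower in KO cells at 24 h, with a median of 0.40. The background of this list and of the target genes below was 17.9% of all genes higher and 20.7% lower. Bcl6 (0.82 ± 0.142, adjusted p = 0.000337) and Runx1 (0.46 ± 0.111, adjusted p = 0.00435) were higher. Prdm1, the gene of BLIMP-1, was higher by 2.62 ± 0.498 (adjusted p = 0.000752) from a low level, 1.03 ± 0.467 CPM in KO cells and 0.162 ± 0.0758 CPM in WT cells. Leaving out 1 library at a time, the count over this list ran between 2 (without KO 24 h replicate 2) and 8, and it was 3 without WT 24 h replicate 1 and 4 with that library kept and the other left out. Of 20 known AP-1 and NFAT target genes of T cells 17 were tested, and 10 were higher and 1 lower at 24 h, with a median of 0.65. Ifng, the gene of interferon gamma, averaged 25.5 ± 4.02 CPM in KO cells and 2.19 ± 0.413 CPM in WT cells, higher by 3.54 ± 0.413 (adjusted p = 4.88e-05). Gzmb, which encodes granzyme B, was higher by 3.23 ± 0.363 (adjusted p = 0.00024), and Cd40lg, a ligand that helps B cells, was lower at -1.82 ± 0.215 (adjusted p = 1e-04). Il2 averaged 166 ± 48.7 CPM in KO cells and 177 ± 10.3 CPM in WT cells at 24 h, which overlap. Without WT 24 h replicate 2 the list's 11 calls became 7.

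Marker genes of several other cell types stood higher in the KO libraries at the same time. For each count of markers and of T cell genes here, the background at 24 h was 17.9% of all genes higher and 20.7% lower. Of 12 basophil and mast cell markers 11 were tested and 10 were higher at 24 h (4 when WT replicate 1 was left out and 3 when WT replicate 2 was), and their sum was 186 and 662 CPM in KO libraries, against 11.2 and 9.91 CPM in WT libraries. The defining gene Mcpt8 stood at 57.0 and 226 CPM in KO libraries, against 1.62 and 1.89 CPM in WT libraries. Of 12 neutrophil and granulocyte progenitor markers 6 were higher (3 without KO replicate 2, 1 without WT replicate 1 and 2 without WT replicate 2 of that time), with sums of 22.4 and 87.8 CPM in KO libraries, against 0.593 and 0.487 CPM in WT libraries, where Elane was at 0. Of 10 myeloid markers 5 were higher, 3 without KO replicate 2 (41.3 and 47.6 CPM in KO, against 15.9 and 13.6 CPM in WT). The myeloid gene Cd14 overlapped, with 0.817 and 0.323 CPM in KO libraries, against 0.593 and 0.108 CPM in WT libraries. Of 10 markers of CD8 T or NK cells 5 were higher (172 and 110 CPM in KO, against 33.7 and 30.7 CPM in WT). The CD8 genes themselves did not go the way of this sum, and KO and WT libraries overlapped for both. Cd8a stood at 1.20 and 0.701 CPM in KO libraries, against 1.67 and 1.19 CPM in WT libraries. Cd8b1 stood at 5.77 and 4.85 CPM in KO libraries, against 4.69 and 6.55 CPM in WT libraries. Of 5 B cell markers tested 1 was lower, and the sums over the 10 were 105 and 89.7 CPM in KO libraries, against 232 and 247 CPM in WT libraries. The B cell genes did not all go the way of this sum, as the median log2 fold change of the 5 was 0.91. Cd79a stood at 2.07 and 2.10 CPM in KO libraries, against 1.40 and 0.812 CPM in WT libraries. At 0 h the basophil and mast cell sum ran between 319 and 828 CPM in KO libraries, against 24.3 and 46.3 CPM in WT libraries, and at 8 h between 131 and 412 CPM, against 11.5 and 14.4 CPM. Between the 2 KO libraries at 24 h the members called higher differed by at most 1.205-fold. The basophil sum differed widely between these libraries, and the myeloid sum differed little (41.3 and 47.6 CPM). What these cells contribute to the RNA of the members, or of listed genes such as Ifng and Gzmb, was not tested. Of 16 T cell identity genes, 6 were higher and 1 lower at 24 h, with a median of 0.20, and these 7 calls became 3 without KO replicate 1 or without WT replicate 1 and 4 without KO replicate 2.

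The profile of each member over the 12 libraries was set beside those of all other tested genes with a mean of at least 5 CPM, by Pearson's r on log2 CPM. The 12 libraries share 3 times and 2 genotypes, so r describes these groups and carries no p. Fos was most like Mark2, Slc44a2 and Sgk1 (r between 0.992 and 0.993), and Fosb like Frat2, Mknk1 and Peg13 (0.983 to 0.987). Among the genes most like Fosl1 were Zbed5 (0.993) and Nfkb1 (0.992). Fosl2 was most like Cdh23, Zbtb17 and Errfi1 (0.989 to 0.993), and Jun like Grina, Fmnl1 and Galnt6 (0.990 to 0.991). Junb was most like Dusp1, Klf4 and Chic2 (0.962 to 0.976). Dusp1, a MAP kinase phosphatase, shared the spread at 0 h, with 420.0 and 305 CPM in KO cells, against 478 and 168 CPM in WT cells. Jund was most like Higd2a, Irf2bpl and Tpgs1 (0.955 to 0.968), and Batf like Gpx4, Slc25a11 and Elmo2 (0.984 to 0.988). Gpx4, a lipid peroxide reductase, stood at 45.6 and 48.5 CPM in KO cells, against 98.9 and 94.1 CPM in WT cells at 24 h, lower in KO as Batf was. Batf3 was most like Abhd4, Irf5 and Rap2a (0.956 to 0.974), and Atf3 like Atat1, Trappc4 and Gadd45b (0.972 to 0.977). Among the members, Fos and Fosb had the highest r (0.973), and Fosl2 and Batf one of the lowest (-0.906).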

How the data were processed

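Stranded RNA libraries depleted of ribosomal RNA were sequenced, per the labels' protocols. Reads were trimmed with fastp 0.12.4 and aligned with STAR 2.7.1a to mm10, per the submitters' processing notes, which name these tools and this build without further settings. The authors deposited whole-number counts per gene for all 12 libraries. The sources used here do not say which counter and annotation were used, or whether strand was used or duplicate reads removed. A table of repeat elements was not used here.

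From the counts, edgeR 4.0.16 (R 4.3.3) gave TMM-scaled CPM and quasi-likelihood tests (robust) with 1 mean per group over 12 libraries, after filterByExpr with a minimum count of 10. P-values were adjusted by Benjamini-Hochberg over 15679 genes, two-sided, at 0.05, for 9 contrasts, and SE is the log2 fold change over the root of F. FPKM used exon unions of GENCODE genes on GRCm38. Gene counts per library ran between 16810375 and 19126498, and intervals on counts cover counting error only. The procedure was tested on simulated data. Alternatives were DESeq2 1.42.0, RLE size factors, other filters, the libraries of a contrast alone, a replicate block and leaving out libraries.

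Named genes were all members, Ddx55, up to 3 genes of each list with the smallest p among those called, the 3 genes most like each member and those said to be chosen after their values were seen. Il2 and the cell markers were also added as named examples. Some genes that this rule names are not reported here. The members and lists were chosen with earlier results of these data known.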

Additional observations from a re-analysis of the deposited data

Results flagged for a closer look

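The difference between KO and WT cells in Fosl1 was not the same at 24 h and at 8 h, and the difference between the times was itself tested. Its log2 fold change of KO against WT was 1.68 at 24 h and 0.07 at 8 h, which differ by 1.61 ± 0.217 (SE, edgeR's quasi-likelihood test, adjusted p = 0.000142). Each KO library at 24 h was above each WT library, and the values at 8 h overlapped.

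Batf also differed between the times by that test, in the other direction. Its log2 fold change of KO against WT was -0.59 at 24 h and 0.06 at 8 h, a difference of -0.65 ± 0.172 (edgeR, adjusted p = 0.0197). Leaving out any 1 of 5 libraries at 8 h or 24 h took it past the threshold, with adjusted p between 0.0536 and 0.096. Both KO libraries lay below both WT libraries at 24 h.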

How the results depend on the processing

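Of the values of members that passed the test, 714 kept direction and side of the threshold under an alternative, 45 lost the call and 0 changed sign. Of those that did not pass, 970 stayed so, 72 passed and 49 changed sign. The low counts of Batf3 and the 0 h spread of Fosb, Junb, Jun and Atf3 limit what 2 libraries per group can show. The cause of each change below was not tested unless fewer libraries entered the fit.

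The labels number the libraries 1 and 2 in each group. Deviations of same-numbered libraries correlated between -0.0997 and 0.288 over 15 pairs of groups, with 8 over 0.1. Not every pair was over 0.1, so the numbers were not treated as pairs, but all 3 pairs of KO times were, at 0.288, 0.111 and 0.222. Pairs of WT times gave 0.22 (0 h and 8 h), 0.09 (0 h and 24 h) and 0.106 (8 h and 24 h). The tests over time thus take same-numbered libraries as independent, which these values do not settle. With a replicate block, 1 member (Fosl2, 0.50, adjusted p = 0.0252) and 669 genes were called for KO against WT at 8 h, and Junb at 0 h was 0.00031.

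Members called for KO against WT at 0 h were 0 with all libraries and 1 without the 3 KO libraries numbered 2. At 8 h they were 0, with 2 under no filter, 1 with the libraries of the contrast alone and 3 without the 0 h libraries. At 24 h they were 6, with 3 without the KO libraries numbered 1. For 24 h against 8 h they were 6 in KO cells, with 10 on the contrast alone, 10 without the 0 h libraries and 3 without the KO libraries numbered 1, and 5 in WT cells, with 9 on the contrast alone and 9 without the 0 h libraries. Between 8 h and 24 h the KO effect itself changed for 2 members, with 5 on the contrast alone and 5 without the 0 h libraries.

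Genes called for KO against WT at 0 h were 893, with 545 on the contrast alone and 1807 without the KO libraries numbered 2. At 8 h they were 415, with 862 under no filter, 667 by DESeq2, 653 without the 0 h libraries and 1206 without the KO libraries numbered 1. Between 0 h and 8 h the KO effect changed for 156 genes, with 445 under no filter, 54 on the contrast alone, 300 by DESeq2, 288 without the KO libraries numbered 1 and 273 without those numbered 2.

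Leaving out 1 library at a time, members called ran between 0 and 3 for KO against WT at 0 h, 0 and 2 at 8 h, and 3 and 8 at 24 h. They ran between 8 and 9 for KO cells and stayed at 9 for WT cells at 8 h against 0 h, and between 5 and 8 for KO cells and 4 and 8 for WT cells at 24 h against 8 h. For the change of the KO effect they stayed at 0 from 0 h to 8 h and ran between 1 and 3 from 8 h to 24 h. Genes called ran between 383 and 1015, 97 and 555, and 4262 and 6492 for KO against WT at 0, 8 and 24 h. They ran between 8204 and 9605 for KO and 8271 and 9911 for WT at 8 h against 0 h, and between 3672 and 5934 for KO and 5206 and 7249 for WT at 24 h against 8 h. For the change of the KO effect they ran between 49 and 308 from 0 h to 8 h and between 1426 and 2841 from 8 h to 24 h.

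Uncalled log2 fold changes changed sign without the KO libraries numbered 1 for Atf3 (-0.85) and Jun (-0.045) at 0 h, Fosl1 at 8 h (-0.067), Fosb at 24 h (-0.073), and in the change of the KO effect for Atf3 from 0 h to 8 h (1.45) and for Fos (-0.068) and Jund (-0.12) from 8 h to 24 h. Without those numbered 2 they did for Fosb (0.0093), Fosl1 (0.053), Junb (0.35) and Jund (0.16) at 0 h, and in the change of the KO effect for Junb from 0 h to 8 h (-0.062) and for Batf3 (-0.12) and Fosb (0.063) from 8 h to 24 h.

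Without 1 library at a time, log2 fold changes of KO against WT at 0 h ran between -0.85 and 2.58 for Atf3, -0.22 and 0.57 for Fos, -1.05 and 1.70 for Fosb, -0.80 and 0.083 for Fosl1, -0.054 and 0.53 for Fosl2, -0.42 and 0.75 for Jun, -0.58 and 0.95 for Junb and -0.54 and 0.43 for Jund. Fosl1 ran between -0.067 and 0.20 at 8 h, Fosb between -0.073 and 0.18 at 24 h, and Batf3 between 0 and 3.27 for WT cells at 8 h against 0 h. As a shift in KO effect, 8 h minus 0 h, values ran between -1.84 and 1.60 for Atf3, -0.15 and 0.64 for Fos, -1.34 and 1.41 for Fosb, -0.0064 and 0.88 for Fosl1, -0.037 and 0.55 for Fosl2, -0.016 and 1.16 for Jun, -0.68 and 0.84 for Junb and -0.26 and 0.71 for Jund. For 24 h minus 8 h they ran between -1.97 and 1.34 for Batf3, -0.14 and 0.22 for Fos, -0.031 and 0.24 for Fosl2 and -0.14 and 0.19 for Jund.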
